A study of Mus musculus with 2 samples.

Results

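The proliferating tumor endothelial cells (TECs) described here are 46 cells of 1 single-cell library of E0771 mammary tumors. The members were selected on measured values: they are the 20% of eligible TECs, 46 of 230, with the highest summed level of 8 genes of mitosis (Mki67, Birc5, Cdk1, Ccnb2, Cenpf, Nusap1, Tpx2 and Ube2c). The tumor library held 704 barcodes and the whole series 9751. A cell was eligible with 200 or more genes, under 10% mitochondrial UMIs (unique molecular identifiers, each standing for 1 captured RNA molecule), no UMI of Ptprc, Myh11, Epcam or Cspg4, and 2000 or more UMIs. It also needed 2 or more UMIs of the endothelial genes Cdh5 and Pecam1 together, and more of these than of Rhox5, Hmga2 and Krt8, which mark the cancer cells of this library. The comparison group is the 50% of eligible TECs with the lowest summed level, 115 cells that are called low-index TECs, and the 69 cells between are called middle TECs.

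The study sorted endothelial cells (ECs) as CD45-/CD31+ cells and sequenced 1 droplet library of TECs and 1 of normal endothelial cells (NECs). The TECs came from pooled E0771 tumors, grown from a mouse mammary carcinoma line implanted in the mammary gland, and their labels give no strain or age. The NECs came from pooled normal mammary glands of C57BL/6 mice aged 6 to 8 weeks. Some fields of the NEC labels name TECs and E0771 tissue, and the library was read as normal because its title and the series design say so. Neither library carries a gene deletion or a drug treatment in its labels. Each condition has 1 library, so there is no replicate check and no test was made. Levels are counts per 1000000 UMIs (CPM) summed over the cells of a group, with 95% intervals that cover counting error only. The 2 libraries shared 3 barcodes, of which 1 belonged to an eligible TEC and 0 to a proliferating TEC.

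Most ECs of adult vessels are quiescent, and ECs divide again when a tumor draws new vessels. A dividing cell first licenses its replication origins and copies its DNA in S phase, with genes driven by E2F factors, and then builds a spindle and separates its chromosomes in mitosis. The mitosis genes are transcribed late in the cycle, largely through promoters that hold a CCAAT box and a cell cycle homology region (CHR). Because the 8 genes that ranked the cells belong to this late program, the higher level of other mitosis genes in the chosen cells is a description of what the choice brings with it, and it supports nothing by itself. The 8 genes are left out of every list and count.

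The ranking separated cells with many UMIs of the 8 genes from cells with few or none. The summed level of the 8 genes ran from 574 to 5479 CPM in the proliferating TECs, with a median of 1598 CPM. Each of these cells held at least 3 UMIs from at least 3 of the 8 genes, and 12 cells held all 8. Of the 115 low-index TECs, 92 held no UMI of the 8 genes and 23 held 1 UMI. The limit fell between rank 46, at 574 CPM with 18 UMIs of the 8 genes, and rank 47, at 568 CPM with 2 UMIs in a cell of 3519 UMIs in all. Ranks 46 and 47 were therefore alike in the ranking value and unlike in the counts behind it. Rank 48, also outside the limit, held 23 UMIs of the 8 genes at 504 CPM.

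**Figure D1:**
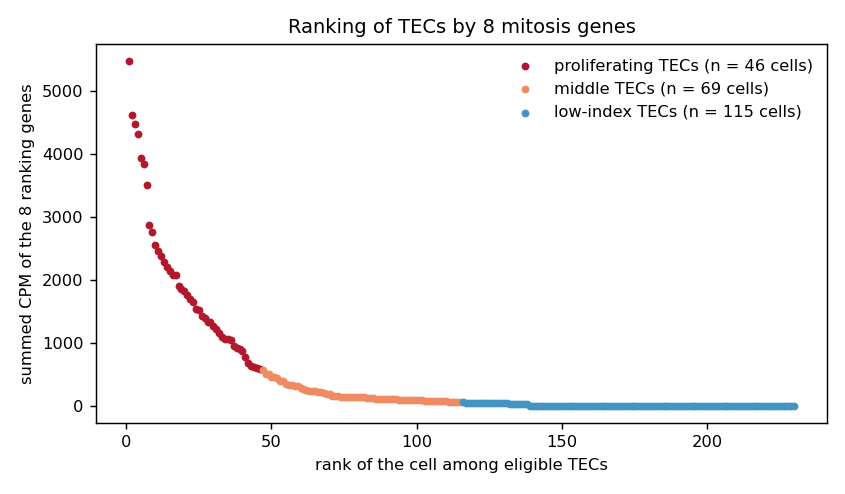
Summed CPM of the 8 ranking genes (vertical axis, CPM per cell) against the rank of each of the 230 eligible TECs (horizontal axis), 1 point per cell, coloured by group. The 46 proliferating TECs run from 5479 down to 574 CPM, and 92 of the 115 low-index TECs lie at 0.

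Proliferating TECs were deeper cells. Their UMI counts ran from 2920 to 55669 with a median of 27600.5, against medians of 19878 in middle and 15953 in low-index TECs. Over the whole tumor library, barcodes held 510 to 183550 UMIs, and over the NEC library 500 to 327449. Summed, the groups held 1225569, 1457714 and 1842771 UMIs. The median mitochondrial share was 3.26% in proliferating, 3.96% in middle and 3.50% in low-index TECs. CPM divides by depth, but shares of cells with a UMI do not, so shares of cells are also given after thinning each cell to 2000 UMIs where the text says so, and numbers of cells given without thinning are to be read with this difference in depth. No doublet caller was run, and the part of doublets in the deeper cells was not tested.

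The label of proliferating endothelium was checked against markers of ECs and of other cells. All 18 pan-endothelial genes, a list without the Cdh5 and Pecam1 that the filter used, were detected in the proliferating TECs, at 10444 CPM together (interval 10264 to 10627) against 13298 CPM (13132 to 13466) in low-index TECs. Each of the 46 cells held UMIs of this list, from 4816 to 19213 CPM per cell. Of the cancer cell genes, Rhox5 had 8 UMIs in 4 proliferating TECs and Hmga2 and Krt8 had 0, but the filter used these 3 genes and so set their low level. Wfdc2, which marks the same cancer cells and was not in the filter, had 0 UMIs in proliferating and 7 UMIs in low-index TECs. It had 2006 UMIs in the 178 cells set aside by the last pair of filters, for too few endothelial UMIs or for more cancer-cell UMIs than endothelial ones. Those cells also express cell cycle genes, and the part of their RNA in the levels given here was not tested.

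Markers of other cell types were near 0 in the proliferating TECs, apart from Cd74 and Flt4. The 6 pericyte genes summed to 16 UMIs, or 13.1 CPM against 54.9 in middle and 53.7 in low-index TECs, and 38 of the 46 cells held none. The 6 fibroblast genes to 5, the 4 smooth muscle genes to 6 and the 6 blood cell genes to 6. Of the leukocyte list, Cd3e and Tyrobp were at 0 and 557 of 584 UMIs were of Cd74, the invariant chain of MHC class II, which tumor ECs can express. Cd74 stood at 454 CPM in proliferating and 553 CPM in low-index TECs. The 6 lymphatic genes summed to 55 UMIs, or 44.9 CPM against 91.7 in low-index TECs. Flt4 was nearly level in CPM between the 2 groups, and it gave 96.4% of the UMIs of this list in proliferating and 45.6% in low-index TECs. Prox1, Pdpn and Ccl21a were at 0 in both groups. Lyve1, a hyaluronan receptor of lymphatic ECs, had 2 UMIs in proliferating TECs and 90 in low-index TECs, held by 9 cells.

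The background for every count of listed genes that follows is the share over all genes. Of 6439 genes with at least 50 UMIs over both groups, 343 were 2-fold or more higher in proliferating TECs, or 5.33%, and 345 were 2-fold or more lower, or 5.36%. The median log2 ratio of all these genes was -0.04. Lists for DNA replication, mitosis and chromatin held 103 of the 343 higher genes. Between middle and low-index TECs, 0.944% of 6569 genes were 2-fold higher and 1.52% were 2-fold lower.

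The genes named next had the 15 largest ratios among the 6439 genes when a UMI in at least 25% of the cells of the higher group is also asked, and 7 of the 15 were on a mitosis list. All 15 had 0 to 5 UMIs in low-index TECs and so passed the minimum of 50 UMIs through the proliferating group. Cdkn3, a phosphatase that acts on Cdk1 and Cdk2, had 139 UMIs in 35 of the 46 proliferating TECs, 14 UMIs in middle TECs and 0 in low-index TECs, and was at least 69.7-fold higher against a floor of 3 counts over the low-index group. Plk1, the polo-like kinase that drives mitotic entry, had 92 UMIs in 32 cells against 0, or at least 46.1-fold. Kif2c, a kinesin that corrects faulty spindle attachments, and Ckap2l, a spindle protein, each had 52 UMIs against 0, or at least 26.1-fold. In these genes the low-index group gave no molecule at all.

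By the same floor of 3 counts over the low-index group, 5 further genes of these 15 were detected in proliferating but not in low-index TECs. They were Knl1, the outer kinetochore scaffold (at least 39.1-fold), Pbk, a mitotic kinase (35.1-fold), Shcbp1 (30.1-fold), Mns1 (28.6-fold) and C330027C09Rik (25.1-fold). None of the 5 was on a list of replication or mitosis genes. Mns1 is best known as a structural protein of sperm flagella and motile cilia, and it had 57 UMIs in 30 of the 46 proliferating TECs, 4 in middle TECs and 0 in low-index TECs.

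Genes with a few UMIs in low-index TECs followed. Ccna2, the cyclin of S phase and of entry into mitosis, had 127 UMIs against 1, a log2 ratio of 7.58 (interval 5.07 to 12.89). Cdc20, which activates the anaphase-promoting complex, had 285 against 3, a log2 ratio of 7.16 (5.60 to 9.44). Cdca8, a subunit of the chromosomal passenger complex, had 224 against 3 (6.81, interval 5.25 to 9.10), and Cep55, which acts in the final cut between daughter cells, had 80 against 1 (6.91, interval 4.39 to 12.23). Pclaf, a partner of the replication clamp PCNA, had 396 UMIs in 43 of the 46 cells against 5, a log2 ratio of 6.90 (5.66 to 8.53). Pimreg, a regulator of the metaphase to anaphase transition, had 135 against 1 (7.67, interval 5.16 to 12.98). With 1 to 5 UMIs in the low-index group the intervals are wide.

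The mitosis genes as a whole stood at 10992 CPM (interval 10808 to 11180) in proliferating TECs, 2750 CPM in middle TECs and 2158 CPM (2091 to 2226) in low-index TECs. The log2 ratio of proliferating over low-index TECs was 2.35 (interval 2.30 to 2.40). Of 82 listed genes, 80 were in the table and 54 had at least 50 UMIs. Of these 54, 48 were 2-fold or more higher and 0 were 2-fold or more lower, with a median log2 ratio of 4.72 against -0.04 over all genes. Here and in the lists that follow, genes of low count passed the minimum of 50 UMIs largely through the group where they were higher, so these counts and medians are a description. The levels per cell ran from 3273 to 25000 CPM in proliferating TECs, with a median of 10844, and from 753 to 5337 CPM in low-index TECs, so the ranges overlapped at their ends.

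Among the mitotic regulators, 10 of 11 genes with enough UMIs were 2-fold higher, and the list stood at 2650, 497 and 392 CPM in proliferating, middle and low-index TECs. Ccnb1, the cyclin partner of Cdk1, stood at 137, 3.43 and 1.63 CPM. Cks1b and Cks2, small subunits of the cyclin-dependent kinases, stood at 288, 35.7 and 14.1 CPM and at 349, 56.9 and 41.2 CPM. Foxm1, a transcription factor of late cycle genes, was at 33.5 CPM against 1.09, but did not reach the minimum of UMIs over both groups. Pttg1, the securin that holds back separase until anaphase, went the other way, at 81.6 CPM against 104 (log2 ratio -0.35, interval -0.72 to 0.00).

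Of the kinetochore and checkpoint list, 13 of 14 genes were 2-fold higher, and this list had the largest ratio of the mitosis lists (log2 3.34, interval 3.16 to 3.52). Cenpa, the histone variant of the centromere, stood at 356 CPM in proliferating, 19.9 CPM in middle and 5.43 CPM in low-index TECs. Spc24, part of the Ndc80 complex that grips microtubules, stood at 145, 30.2 and 1.63 CPM. Aurkb, the kinase of the chromosomal passenger complex, was at 57.1 CPM against 1.09. Bub3 did not differ beyond its counting interval, at 116 CPM against 120 (log2 ratio -0.06, interval -0.37 to 0.25).

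All 18 spindle and cytokinesis genes with enough UMIs were 2-fold higher. Stmn1, which destabilizes microtubules, stood at 658, 147 and 64.0 CPM, and Tuba1b, an alpha tubulin, at 986, 295 and 167 CPM. Kinesins of the spindle had far lower counts in the low-index group, with Kif22 at 99.5 CPM against 2.17 and Kif20a at 55.5 CPM against 1.09. The tubulins Tubb5 and Tubb4b were present in every group and had the smallest ratios of the 18, at log2 1.40 (interval 1.29 to 1.51) and 1.53 (1.39 to 1.68).

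Chromosome structure genes split by subunit. Condensin subunits were higher, with Smc2 at 184, 28.8 and 17.9 CPM, Smc4 at 229, 49.4 and 32.0 CPM and Ncapg at 52.2, 2.74 and 0.543 CPM. Cohesin subunits, which hold sister chromatids together, gave smaller ratios, with Rad21 at log2 1.78 (interval 1.36 to 2.22), Smc3 at 1.21 (0.78 to 1.65) and Smc1a at 0.69 (0.43 to 0.95). Stag1 and Stag2 were within counting error, at 0.04 (-0.57 to 0.64) and -0.03 (-0.65 to 0.57). The topoisomerases, which untangle DNA, also differed from each other. Top2a stood at 223 CPM (197 to 251) in proliferating TECs against 5.43 CPM (2.60 to 9.98), a log2 ratio of 5.36, and Top2b at 53.9 CPM against 77.6, a log2 ratio of -0.53 (-0.97 to -0.10).

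The DNA replication genes differed less than the mitosis genes. Their sum stood at 4053 CPM (interval 3941 to 4167) in proliferating, 2117 CPM in middle and 1129 CPM (1081 to 1179) in low-index TECs, a log2 ratio of 1.84 (1.77 to 1.92). Of 68 listed genes, 47 had at least 50 UMIs, of which 38 were 2-fold or more higher and 0 were 2-fold or more lower, and the median log2 ratio was 2.01. The levels per cell ran from 1126 to 10142 CPM in proliferating TECs and from 284 to 4614 CPM in low-index TECs, so the groups overlapped over much of their range.

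All 11 origin licensing genes with enough UMIs were 2-fold higher. Mcm5 and Mcm7, subunits of the replicative helicase, stood at 91.4, 46.6 and 8.68 CPM and at 87.3, 37.0 and 9.77 CPM in proliferating, middle and low-index TECs. Gmnn, which blocks origins from firing again, stood at 95.5, 41.2 and 12.5 CPM. Mcm6 was as high in middle as in proliferating TECs, at 85.1 and 93.0 CPM, against 30.4 CPM in low-index TECs.

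At the replication fork, 17 of 20 genes were 2-fold higher. Fen1, which trims the flaps of the lagging strand, stood at 85.7 CPM against 5.97, Lig1, which joins its fragments, at 95.5 CPM against 19.5, and Pcna, the sliding clamp, at 113 CPM against 35.3. Timeless, a fork protection factor that is also linked to the clock, was the gene that went the other way, at 47.3, 76.8 and 92.8 CPM (log2 ratio -0.97, interval -1.43 to -0.53), while its partner Tipin was at 95.5 CPM against 22.8 (2.07, interval 1.55 to 2.61).

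Nucleotide supply was uneven. Tk1 and Rrm2, which salvage thymidine and make deoxynucleotides, had log2 ratios of 5.68 (interval 4.43 to 7.32) and 5.73 (4.48 to 7.37). Tyms, which makes thymidylate, stood at 305, 121 and 61.3 CPM. Purine synthesis genes had smaller ratios, at 0.81 for Paics (0.42 to 1.21), 0.66 for Gart (0.11 to 1.22) and 0.81 for Atic (0.26 to 1.35). Mthfd2, a mitochondrial folate enzyme, did not differ beyond its interval, at 37.5 CPM against 36.9. In all, 10 of 16 genes of this list were 2-fold higher.

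Histone variants and chromatin proteins stood at 6400, 2369 and 1356 CPM together, and 17 of 18 were 2-fold higher. H2afz, the variant histone H2A.Z, was detected in all 46 proliferating TECs at 2023 CPM, against 648 CPM in middle and 319 CPM in low-index TECs. Hmgb2 stood at 907, 188 and 91.2 CPM and Hmgn2, a nucleosome-binding protein, at 243, 118 and 33.1 CPM. Lmnb1, which lines the nucleus, was at 150 CPM against 9.77. Ezh2, which methylates histone H3, was at 48.1 CPM against 8.68, while Ezh1, the related enzyme of non-dividing cells, was at 3.26 CPM against 25.5, a log2 ratio of -2.97 (-4.90 to -1.51).

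Middle TECs lay closer to proliferating TECs in replication genes than in most mitosis genes. The middle level was 55.1% of the proliferating level for licensing genes, 52.3% for fork genes and 50.5% for nucleotide genes, but 18.8% for mitotic regulators, 15.6% for kinetochore genes, 28.0% for spindle genes and 36.4% for chromosome structure genes. Over low-index TECs, middle TECs stood at a log2 ratio of 0.91 (interval 0.83 to 0.99) for replication and 0.35 (0.29 to 0.41) for mitosis. Since the middle cells were ranked by mitosis genes, the low value of mitosis follows from the ranking.

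**Figure D2:**
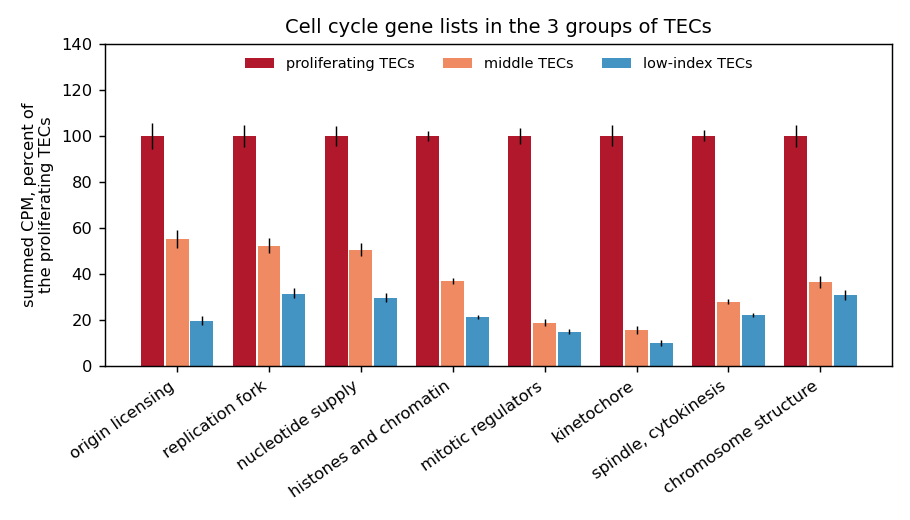
Summed CPM of 8 cell cycle lists in proliferating, middle and low-index TECs (bars, as percent of the proliferating level), with 95% counting intervals (lines). Middle TECs reach 55.1% for origin licensing genes and 15.6% for kinetochore genes.

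The proliferating TECs were not alike in the balance of both programs. The ratio of mitosis to replication CPM in a cell ran from 0.872 to 6.82 with a median of 3.66, and 1 of the 46 cells had more replication than mitosis CPM, against 12 of 69 middle TECs and 9 of 115 low-index TECs. For 7 early genes (Mcm2 to Mcm7 and Gins2), 18 proliferating, 17 middle and 1 low-index TEC held 10 or more UMIs. For 7 late genes (Plk1, Cdc20, Ccnb1, Aurka, Cenpa, Cenpe and Hmmr), 29 proliferating TECs held 10 or more UMIs and 0 cells of the other groups did. Both sets reached 10 UMIs in 13 proliferating TECs. These numbers of cells were not thinned, and the deeper proliferating TECs reach 10 UMIs more easily. Across the 46 cells, which share 1 library and differ in depth, replication and mitosis CPM had a Pearson r of 0.41 and a Spearman rho of 0.46.

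**Figure D3:**
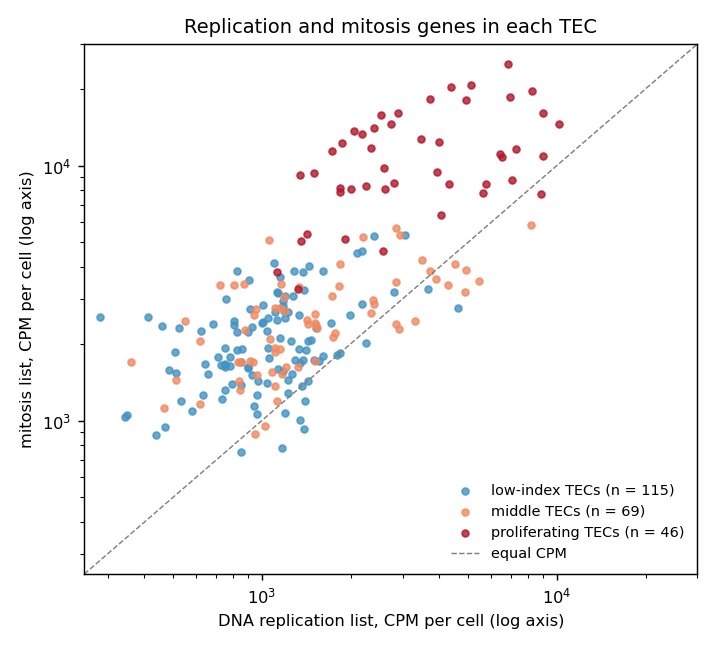
Mitosis list (vertical log axis, CPM per cell) against DNA replication list (horizontal log axis, CPM per cell), 1 point per eligible TEC, coloured by group, with a dashed line at equal CPM. Proliferating TECs lie high on the mitosis axis and spread along the replication axis from 1126 to 10142 CPM, and 1 of the 46 lies below the line.

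The promoters of these genes were read for the letters of the late and early programs, and a few are shown, both with and without the letters their program is known for. Each line below gives 150 bases up to the transcription start, on the strand of the gene, from RefSeq annotation of GRCm38.p6, the patch release of the mm10 build named in the submitters' processing notes. Capitals mark CCAAT, the CHR letters TTTGAA or TTCGAA, and the E2F letters TTTCCCGC, TTTCGCGC, TTTGCCGC or TTTGGCGC, on either strand, and overlapping matches run together. The first capital of Mcm5 belongs to an E2F match that begins before the printed bases. Cdc20 is at chr4:118437344-118437493 (minus strand), Top2a at chr11:99024190-99024339 (minus), Cdkn3 at chr14:46760391-46760540 (plus), Ccnb1 at chr13:100786487-100786636 (minus), Mcm5 at chr8:75109359-75109508 (plus), Mcm6 at chr1:128359706-128359855 (minus) and Mcm2 at chr6:88898781-88898930 (minus).
Cdc20: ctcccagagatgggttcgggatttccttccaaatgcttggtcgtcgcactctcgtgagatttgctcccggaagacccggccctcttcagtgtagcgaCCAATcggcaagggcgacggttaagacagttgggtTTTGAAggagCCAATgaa
Top2a: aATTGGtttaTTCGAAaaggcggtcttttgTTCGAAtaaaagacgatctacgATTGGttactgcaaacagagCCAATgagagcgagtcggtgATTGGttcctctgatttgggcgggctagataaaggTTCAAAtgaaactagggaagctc
Cdkn3: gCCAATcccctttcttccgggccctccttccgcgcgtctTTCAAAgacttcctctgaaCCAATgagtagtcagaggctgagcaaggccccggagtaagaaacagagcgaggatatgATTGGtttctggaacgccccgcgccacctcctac
Ccnb1: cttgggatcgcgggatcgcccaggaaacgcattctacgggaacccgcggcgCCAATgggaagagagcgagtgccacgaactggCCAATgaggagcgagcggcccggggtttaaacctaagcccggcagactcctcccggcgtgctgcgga
Mcm5: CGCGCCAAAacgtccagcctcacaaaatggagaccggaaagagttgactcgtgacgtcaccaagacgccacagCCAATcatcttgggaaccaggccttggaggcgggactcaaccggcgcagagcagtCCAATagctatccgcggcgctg
Mcm6: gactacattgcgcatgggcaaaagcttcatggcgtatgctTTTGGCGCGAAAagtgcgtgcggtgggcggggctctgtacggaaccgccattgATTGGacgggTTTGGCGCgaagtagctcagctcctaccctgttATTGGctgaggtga
Mcm2: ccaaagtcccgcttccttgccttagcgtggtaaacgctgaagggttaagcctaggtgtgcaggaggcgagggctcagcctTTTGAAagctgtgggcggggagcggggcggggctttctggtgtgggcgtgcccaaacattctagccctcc

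In the printed bases, Cdc20, Top2a and Cdkn3 held CHR and CCAAT matches and no E2F match, while Mcm5 and Mcm6 held E2F and CCAAT matches and no CHR match. Other promoters that were read did not follow this split within 150 bases. There Ccnb1, Plk1, Cdca8 and Aurka held a CCAAT and no CHR match, Mcm2 held a CHR and no E2F match, and Mcm3, Mcm7, Rrm2 and Tk1 held no E2F match. Some of these exceptions depend on the cut at 150 bases. In their windows of 300 bases Plk1, Cdca8 and Aurka held a CHR match, and Mcm3 and the first Mcm7 window held E2F matches. Ccnb1 still held no CHR match, and Mcm2, Rrm2 and Tk1 still held no E2F match. Over windows of 300 bases, from 250 before to 50 after the start, the mitosis list (68 of 82 genes matched, 75 windows) held a CHR in 68.0%, a CCAAT in 72.0% and both in 54.7%. The replication list (55 of 68 genes matched, 62 windows) held a CHR in 12 windows, a CCAAT in 51.6% and an E2F match in 27.4%. Of all 32851 windows, 19.2% held a CHR, 37.4% a CCAAT and 2.26% an E2F match. A match of letters is a description and not a site of binding.

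Genes that govern entry into the cycle were mixed. Ccne1 and Ccne2, the cyclins of S phase entry, stood at 26.9 CPM against 1.09 and 26.1 CPM against 1.63. Neither of these cyclins reached the minimum of UMIs over both groups, so their levels are a description only. E2f1, which reached it, stood at 36.7, 20.6 and 4.88 CPM. Ccnd1, the D cyclin that growth factors induce, did not differ beyond its interval, at 461, 483 and 430 CPM (log2 ratio 0.10, interval -0.06 to 0.26), and neither did Ccnd3, at 114 CPM against 110. Ccnd2 was among the 15 genes with the lowest ratios, at 18.8, 42.5 and 80.9 CPM (-2.11, interval -2.81 to -1.47). Cdk4 was at 219 CPM against 123 and Cdk6 at 31.0 CPM against 65.1.

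Inhibitors of the cycle were mixed as well, with 2 of 9 genes 2-fold higher and 1 2-fold lower. Cdkn1a, which encodes p21, stood at 149, 131 and 234 CPM (log2 ratio -0.66, interval -0.92 to -0.41), and the antiproliferative genes Btg1 and Btg2 had ratios of -0.96 (-1.21 to -0.72) and -0.79 (-1.07 to -0.52). Cdkn2c and Cdkn2d, inhibitors of Cdk4 and Cdk6, were higher, at 34.3 CPM against 13.6 and 88.1 CPM against 18.5. Of 9 p53 pathway genes with enough UMIs, 0 passed 2-fold in either direction, and the sum differed by a log2 ratio of -0.06 (-0.16 to 0.03). Trp53 itself was at 161 CPM against 97.7.

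The 15 lowest ratios, by the same rule on the share of cells, were spread over genes of different roles. Mxd4, a repressor that competes with Myc for its partner Max, had the lowest ratio of these, at 12.2, 67.2 and 118 CPM (log2 ratio -3.27, interval -4.13 to -2.52). Malat1, a nuclear long noncoding RNA, stood at 3935, 8227 and 16525 CPM (-2.07, interval -2.11 to -2.03). After thinning it was detected in 87.0% of proliferating, 92.8% of middle and 91.3% of low-index TECs. In droplet data Malat1 also varies with how much of a cell's cytoplasm was kept, which was not tested here. Bmp2, a ligand of the TGF-beta family, had 57 UMIs in 13 proliferating TECs and 533 UMIs in 52 low-index TECs, at 46.5 and 289 CPM, and thinned shares of 10.9% and 26.1%. Fbln5, a protein of elastic fibers, was at 10.6 CPM against 63.5.

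Beside these and the Ezh1 and Ccnd2 given above, the 15 held Dapk2, a death-associated kinase (log2 ratio -3.00), Galnt15 (-2.66), Fam53b (-2.51), Fbxl7 (-2.48), Smpdl3a (-2.41), Gdpd5 (-2.24), Kctd12 (-2.24), Trps1 (-2.05) and Tspan17 (-2.04). None of these 9 had more than 13 UMIs in the proliferating TECs. Their levels in low-index TECs ran from 30.4 CPM for Trps1 to 59.2 CPM for Fbxl7. These genes passed the minimum of UMIs over both groups largely through the low-index group. The rule on the share of cells used that group as well. The 9 ratios are given without intervals and are a description of genes chosen in this way.

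Dnmt1, the maintenance methyltransferase of DNA and the enzyme the study is about, was higher in proliferating TECs by the sum of UMIs. It had 70 UMIs in proliferating, 45 in middle and 32 in low-index TECs, at 57.1 CPM (interval 44.5 to 72.2), 30.9 CPM and 17.4 CPM (11.9 to 24.5), a log2 ratio of 1.72 (1.09 to 2.37). At least 1 UMI was found in 19 of 46, 29 of 69 and 25 of 115 cells. After thinning to 2000 UMIs, the shares were 6.52%, 5.80% and 4.35%, and the log2 ratio was 0.58 with an interval of -2.10 to 2.95, which is too wide to tell it from the value over all UMIs or from 0. With cells of 10000 UMIs or more in both groups, the log2 ratio was 1.78 (1.13 to 2.45). The share of set-aside, cancer-like cells with a Dnmt1 UMI was 66.9%, at a median of 53068 UMIs.

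Uhrf1, which brings Dnmt1 to newly copied DNA, was more sharply different, at 55.5, 22.6 and 1.63 CPM (log2 ratio 5.09, interval 3.48 to 7.40), with 68 UMIs against 3. Of 9 DNA methylation genes with enough UMIs, these 2 were 2-fold higher and 0 were 2-fold lower. Tet2, an enzyme that oxidizes methylcytosine, had 8 UMIs against 38 and did not reach the minimum of 50. The whole list differed by a log2 ratio of 0.03 (-0.10 to 0.15).

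Genes of the interferon response were present in proliferating TECs at somewhat lower levels. The 28 interferon-stimulated genes in the table, of 29 listed, summed to 12718 CPM (interval 12519 to 12919) in proliferating, 13877 CPM in middle and 16796 CPM (16609 to 16984) in low-index TECs, a log2 ratio of -0.40 (-0.43 to -0.37). All 28 had a ratio below 0, and 9 were 2-fold or more lower against 5.36% of all genes. Rsad2, the antiviral enzyme viperin, had the lowest ratio, at 273, 343 and 959 CPM (-1.81, interval -1.99 to -1.65), and Ifit2, which binds viral RNA, was at 79.1, 139 and 250 CPM. Ifitm3 and Bst2, which block viral entry and release, differed little, at 5212 CPM against 5525 and 2723 CPM against 3045. Isg15, a ubiquitin-like protein, was at 1241 CPM against 1733.

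The interferon level had a wider range among the 115 low-index than among the 46 proliferating TECs. A range widens with more and shallower cells, so the spread of the groups was not compared. The summed level per cell ran from 4068 to 28445 CPM in proliferating TECs, with a median of 12006, and from 2306 to 54971 CPM in low-index TECs, with a median of 12776. The medians were thus close, and the sums differed mainly at the high end, where 4 of the 46 cells with the highest interferon level among all 230 were proliferating, 15 were middle and 27 were low-index TECs. With the mean of each cell's CPM in place of the sum, the log2 ratio was -0.30.

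The chemokines that attract CD8+ T cells stayed detectable in dividing ECs. Cxcl9 stood at 1663 CPM (interval 1591 to 1737) in proliferating, 1808 CPM in middle and 2746 CPM in low-index TECs, and at least 1 UMI was found in 39 of 46, 63 of 69 and 99 of 115 cells. After thinning, the shares were 67.4%, 68.1% and 67.8%. In the set-aside cells the unthinned share was 22.5%, at greater depth. Cxcl10 stood at 932, 685 and 1777 CPM, with thinned shares of 30.4%, 23.2% and 30.4%. The lower CPM of both in proliferating TECs thus went with an equal share of cells after thinning. Irf8, a transcription factor of the interferon response, stood at 174, 155 and 220 CPM.

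Some proliferating TECs held UMIs of Dnmt1 and of these chemokines together. Dnmt1 and Cxcl9 were found in the same cell in 17 of 46 proliferating TECs, or 37.0% (Clopper-Pearson interval 23.2 to 52.5%), in 25 of 69 middle and in 22 of 115 low-index TECs. Top2a and Cxcl10 were found together in 18 of 46 (39.1%, interval 25.1 to 54.6%), 4 of 69 and 4 of 115 cells. Dnmt1 and Cxcl10 were found together in 15 of 46, 11 of 69 and 12 of 115 cells. After thinning to 2000 UMIs, Dnmt1 and Cxcl9 were found together in 6.52%, 4.35% and 2.61% of proliferating, middle and low-index TECs, or 3 cells in each group, Dnmt1 and Cxcl10 in 2, 0 and 1 cells, and Top2a and Cxcl10 in 2.17%, 1.45% and 0.870%, or 1 cell in each. These cells are too few to compare the groups at equal depth.

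Other immune lists were lower or nearly level. Targets of interferon gamma stood at 5266 CPM against 8283 (log2 ratio -0.65, interval -0.70 to -0.61), with 17 of 17 genes below 0, and Cd274, which encodes PD-L1, was at 27.7 CPM against 99.3. MHC class I genes stood at 19963 CPM against 25106 (-0.33, interval -0.35 to -0.31), and 0 of 16 passed 2-fold. Among adhesion molecules, Icam1 was at 135 CPM against 99.8 (0.43, interval 0.12 to 0.74), Icam2 at 438 CPM against 460 (-0.07, interval -0.23 to 0.09) and Vcam1 at 221 CPM against 306 (-0.47, interval -0.68 to -0.26).

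Endothelial identity genes were kept at lower levels. All 18 pan-endothelial genes had a ratio below 0, with a median log2 ratio of -0.33 against -0.04 over all genes, and 2 were 2-fold or more lower. These were Cldn5, the main claudin of endothelial tight junctions, at 481, 842 and 1092 CPM, and Erg, an endothelial transcription factor, with 14 UMIs against 45. Kdr, the VEGF receptor, stood at 356, 464 and 442 CPM, and Egfl7, a secreted matrix protein of ECs, at 2079, 2107 and 2316 CPM. Cdh5 and Pecam1, which the filter used, were at log2 ratios of -0.37 and -0.34. CPM is a share of a fixed total, so a higher level of some genes takes from the share of the others. Among genes with at least 100 UMIs the median log2 ratio was -0.0065. With ratios centred on that median, interferon-stimulated genes stood at -0.39 and the tip cell genes given below at -0.54. The pan-endothelial genes were not centred in this way, and how much of the lower levels the fixed total accounts for was not tested.

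Tip cell genes were lower in proliferating TECs. The 16 genes stood at 5601, 8346 and 8208 CPM, a log2 ratio of -0.55 (interval -0.59 to -0.51), with 4 genes 2-fold lower and 0 higher against 5.36% and 5.33% of all genes. Pgf, placental growth factor, was at 169, 317 and 543 CPM, and Unc5b, a netrin receptor, at 22.8 CPM against 72.2. Apln and Angpt2, secreted factors of sprouting vessels, differed less, at 478 CPM against 590 and 480 CPM against 567. Adm, adrenomedullin, was at 270, 333 and 193 CPM (0.48, interval 0.26 to 0.70). Of the 46 cells with the highest tip level among all 230, 3 were proliferating.

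Capillary genes were lower as well, at 4260, 7726 and 7934 CPM (log2 ratio -0.90, interval -0.94 to -0.85). Fabp4, a fatty acid carrier, stood at 1021, 2659 and 2310 CPM, and Gpihbp1, which anchors lipoprotein lipase to capillaries, at 1211, 2004 and 2254 CPM. Car4, a carbonic anhydrase, was at 44.9 CPM against 22.8. Arterial genes came to 324 UMIs in proliferating TECs and stood at 264 CPM against 463, and venous genes at 587 CPM against 860. Gja5, a gap junction protein of arteries, had 3 UMIs in 2 proliferating TECs and 33 UMIs in 6 low-index TECs. Only 2 of the 46 cells with the highest capillary level were proliferating TECs.

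**Figure D4:**
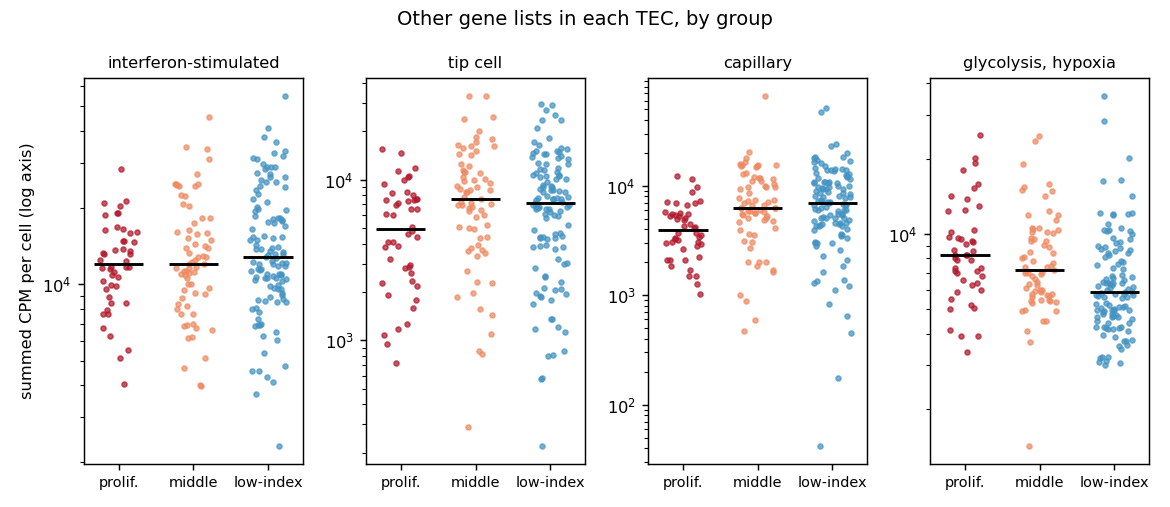
Summed CPM per cell (log axis) of interferon-stimulated, tip cell, capillary and glycolysis genes in proliferating, middle and low-index TECs, 1 point per cell, with black lines at the medians. Medians of interferon-stimulated genes lie at 12006, 12062 and 12776 CPM, and the groups overlap in all 4 panels.

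Receptors and signaling outputs gave small differences. Growth factor receptors stood at 2711 CPM against 3390 (log2 ratio -0.32, interval -0.38 to -0.26), with Insr, the insulin receptor, at 35.1 CPM against 101 and Fgfr1 at 29.4 CPM against 74.9. Aplnr, the apelin receptor, was at 132 CPM against 145 (-0.13, interval -0.42 to 0.15). Notch pathway genes stood at 704 CPM against 942, with 0 of 8 past 2-fold, and targets of ERK at 548 CPM against 646, with 1 of 9 2-fold lower where 5.36% of all genes were. Dll4, the Notch ligand of tip cells, was at 188 CPM against 246.

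Growth metabolism was higher. Genes of ribosome biogenesis stood at 3099, 2884 and 1808 CPM, a log2 ratio of 0.78 (interval 0.71 to 0.85), with 5 of 16 genes 2-fold higher. Npm1 and Ncl, abundant nucleolar proteins, were at 1243 CPM against 727 and 625 CPM against 361. Middle TECs were almost as high, at 0.67 (0.61 to 0.74) over low-index TECs. Myc itself did not differ beyond its interval, at 28.6 CPM against 31.5.

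Glycolysis and hypoxia genes stood at 9631, 8602 and 7242 CPM (log2 ratio 0.41, interval 0.38 to 0.45), with 14 of 19 genes above 0. The enzymes Gapdh, Pgk1, Tpi1 and Ldha had ratios from 0.56 to 0.77. Slc16a3, a lactate exporter, was at 124 CPM against 49.4. Pfkfb3, which makes an activator of glycolysis and is known from sprouting ECs, went the other way, with 27 UMIs against 133 (log2 ratio -1.71, interval -2.37 to -1.11).

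Matrix and stress genes were lower. Basement membrane genes stood at 9924, 13590 and 15257 CPM (log2 ratio -0.62, interval -0.65 to -0.59), with Col4a1 at 1615 CPM against 2622 and Sparc at 4323 CPM against 6791. Of 14 genes with enough UMIs, 13 were below 0 and 0 passed 2-fold. Serpinh1, the collagen chaperone, was level, at 1287 CPM against 1285. Immediate early and heat shock genes, which also respond to tissue digestion, stood at 3731 CPM against 5869 (-0.65, interval -0.70 to -0.60), with Jun at 321 CPM against 702. Hsp90aa1, a chaperone, was higher, at 751 CPM against 474. The part of digestion in these values was not tested.

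In the NEC library, which the ranking did not use, few cells held several of the 8 genes. Of 3651 eligible NECs, 31 held at least 3 of the 8 genes and 3489 held none. The 31 cells had a median of 8763 UMIs and 295533 UMIs in all, against a median of 3508 in the others, and depth also sets how many of the 8 genes can be seen. Of 10439 genes with at least 50 UMIs over both groups, 10.3% were 2-fold higher and 19.4% 2-fold lower in the 31 cells. The 3489 cells held 14399417 UMIs, so genes near the minimum can have few or 0 UMIs in the 31 cells. A gene with 0 UMIs there was counted as 2-fold lower. How much sparse counts add to these shares and to the overlaps that follow was not tested. Of the 343 genes higher in proliferating TECs, 320 were measured in NECs and 250 were 2-fold higher there too. Of the 345 lower genes, 332 were measured and 127 were 2-fold lower.

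The cell cycle lists had larger ratios in NECs than in TECs, with different comparison groups. Replication genes stood at 5830 CPM against 1090 (log2 ratio 2.42, interval 2.35 to 2.49) and mitosis genes at 21385 CPM against 2563 (3.06, interval 3.02 to 3.10). Cdc20 stood at 342 CPM against 2.01, Top2a at 1069 CPM against 2.43, and Dnmt1 at 176 CPM against 26.3 (2.74). Pttg1 was lower in the 31 NECs also, at 50.8 CPM against 140. Timeless stood at 50.8 CPM against 75.1 there, a difference within counting error at so few UMIs. Interferon-stimulated genes were at 4741 CPM against 7439 (-0.65) and capillary genes at 15974 CPM against 30185 (-0.92). The libraries were made separately, and the difference between them was not tested.

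**Figure D5:**
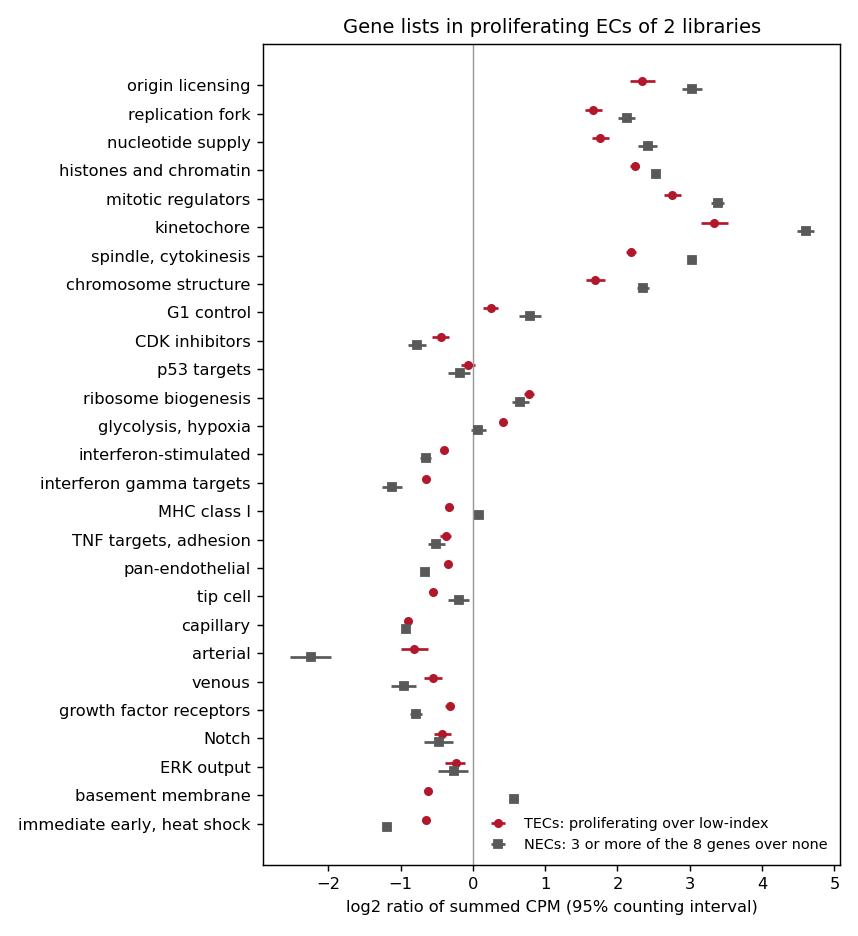
Log2 ratio of summed CPM for 27 gene lists (rows), in TECs (circles, proliferating over low-index) and in NECs (squares, 3 or more of the 8 genes over none), with 95% counting intervals. The licensing, fork, nucleotide, chromatin and mitosis lists lie right of 0 in both libraries, and basement membrane genes lie at -0.62 in TECs and 0.57 in NECs.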

How the data were processed

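The study sorted TECs and NECs and made 1 droplet library of each. The deposited values are raw UMI counts per gene and barcode, which the authors made with Cell Ranger on the mm10 build. Seurat, which the study used after that step, is also named in the submitters' processing notes and did not make these counts. Starting from these counts, cells were filtered (704 to 484, 456, 408, 249 and 230 TECs, in the order of the filters given above), ranked and summed. Intervals were exact Poisson for CPM, exact conditional binomial for log2 ratios and Clopper-Pearson for shares, all at 95% and for counting error only. A gene needed 50 UMIs over both groups to be counted, and 2-fold is a rule of size, not a test. With 1 library a condition no p-value was possible. Shares were also computed on 2000 UMIs drawn without replacement from every cell. Counts of 6447 genes were also simulated for the comparison of proliferating with low-index TECs, as Poisson draws with no spread between cells. The intervals held the true ratio for 94% of 200 changed genes and 95.3% of the others. This checks the arithmetic of the intervals and says nothing of the spread between real cells.

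The members, the 36 gene lists and the alternatives were chosen with earlier results of these data known. Genes were named from the lists by their UMIs and their distance from the list median, from genes the study names, and by the 15 largest ratios each way among genes with a UMI in at least 25% of the cells of the higher group. The lists name Sgol1, Sgol2a and Mx2, which are listed in neither table under these symbols, and Fgfr2, which is not listed for TECs. Sgo2a, the newer symbol of Sgol2a, had 85 UMIs in proliferating and 16 in low-index TECs. Python 3.11.15, numpy 2.4.6, scipy 1.17.1, pandas 2.3.3 and matplotlib 3.10.9 were used. No doublet caller, clustering or batch correction was applied.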

Additional observations from a re-analysis of the deposited data

Results flagged for a closer look

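In 2 gene lists the ratio of cells with to cells without the proliferation genes had opposite signs beyond counting error in TECs and NECs. The smooth muscle and blood cell lists also had opposite signs, but their counting intervals in TECs included 0. Basement membrane genes stood at a log2 ratio of -0.62 in TECs and 0.57 in NECs, and MHC class I genes at -0.33 in TECs and 0.091 in NECs. With 1 library of each, the difference was not tested, and the TEC and NEC comparisons define their groups differently. Within the basement membrane list, Col4a1 stood at -0.70 in TECs and 0.70 in NECs, Sparc at -0.65 and 0.30, and Nid2 at -0.90 and 2.78.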

How the results depend on the processing

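No direction was reversed under the alternatives tried. No paired analysis was possible because each condition has 1 library. The log2 ratio of replication genes (1.84) became 1.74 when cells with at least 3 of the 8 genes were set against cells with none, 2.10 with the top 10% of cells as members and 1.96 under a 5% mitochondrial limit. That of mitosis genes (2.35) became 2.08, 2.76 and 2.41 under the same changes and 2.41 without cells holding a UMI of Rhox5, Hmga2 or Krt8. Interferon-stimulated genes (-0.40) became -0.47, -0.33 and -0.55 under the first 3 changes, -0.45 without those cells, -0.30 with the mean of per-cell CPM and -0.29 after thinning to 2000 UMIs. Tip genes (-0.55) became -0.39 with the top 10%, -0.48 under the 5% limit and -0.49 without those cells. Dnmt1 (1.72) became 0.58 after thinning, with an interval of -2.10 to 2.95. The cause was not tested for these. The 343 higher genes became 44 after thinning, 558 at a minimum of 20 UMIs and 104 at 200 UMIs, and the 345 lower genes became 71, 704 and 72. With the mean of per-cell CPM these counts were 383 and 503. Fewer genes reach the minimum after thinning, which bears on those counts by construction. The other values, 6 of 9 for replication, 5 of 9 for mitosis, 8 of 9 for Dnmt1, 3 of 9 for interferon-stimulated genes and 6 of 9 for tip genes, stayed within the counting interval of the value given, and beside the 4 settings above the gene counts ran from 312 to 362 higher and from 308 to 389 lower. An alternative chosen after seeing the data, NECs of 5000 UMIs or more, moved the summed replication and mitosis ratio in NECs from 2.90 to 2.93. Depth limits what can be said of single genes, since 46 cells gave under 100 UMIs for many of them.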
